A study of Mus musculus with 3 samples.

Results

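The regions described here are the 5105 H3K27me3-rich regions of mouse embryonic fibroblasts that shared no base with an H3K4me3-rich region. They were chosen from 14575 H3K27me3-rich and 15846 H3K4me3-rich regions that the authors had defined with a partitioning tool, and they made up 35.0% of the H3K27me3-rich regions. The paper took its histone methylation data from an earlier study of mouse embryonic fibroblasts, so the marks and NFI were mapped in separate experiments. No tag count or NFI site entered the choice.

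The study mapped the binding of the NFI transcription factor family by ChIP-Seq. The 3 libraries, 1 per group, were an NFI ChIP of wild-type (WT) cells, an NFI ChIP of cells with a knock-out (KO) of NFI-C, and WT input DNA. The values therefore describe these libraries, no test was made across samples, and the 95% intervals given in brackets cover counting error only. The cells came from C57BL/6 embryos of day 14.5 and were used at passage 6 to 7. The KO removes NFI-C alone, and the antibody (H300) was raised against the NFI group, so the other family members can still be precipitated. The input carried no antibody and was made from WT cells only. The title of the KO sample names KO cells while its description line names WT cells; the title was followed, and no value below checks that label. Expression of fibroblast markers was not measured in these libraries, so the cell type was not checked.

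H3K27me3 is laid down by Polycomb repressive complex 2 and is known for marking genes that a cell type keeps silent. H3K4me3 marks active or poised promoters, and promoters that carry both marks are called bivalent. NFI proteins bind DNA as dimers at a palindrome, in which TTGGCA and TGCCAA are separated by 3 free bases, with each subunit contacting 1 arm, TTGGC or its complement GCCAA, and they can activate or repress genes. Regions were kept or left out whole, so H3K27me3-rich bases outside H3K4me3 also lie in the regions that were left out.

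NFI sites deposited by the authors are intervals of 16 bp. Shown first are the 5 sites inside these regions with the highest WT tag count in 300 bp. Ties were taken in genome order, and sites with 5 or more input tags were left out. The sites were called on WT tags, so this ranking is a description and no measure of support. Each sequence is the 100 bp around the site on the forward strand of mm9, and capitals mark an arm, TTGGC or GCCAA.
chr1:79952799-79952898: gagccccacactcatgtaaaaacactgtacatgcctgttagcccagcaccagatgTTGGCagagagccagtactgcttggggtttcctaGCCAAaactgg
chr4:65758587-65758686: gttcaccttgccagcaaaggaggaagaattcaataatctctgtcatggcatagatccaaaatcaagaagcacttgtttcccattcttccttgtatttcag
chr4:72051346-72051445: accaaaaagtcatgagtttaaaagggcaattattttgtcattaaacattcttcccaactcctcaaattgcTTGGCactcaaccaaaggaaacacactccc
chr5:131099310-131099409: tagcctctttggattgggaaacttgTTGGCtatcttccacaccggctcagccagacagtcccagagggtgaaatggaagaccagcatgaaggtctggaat
chr1:81579157-81579256: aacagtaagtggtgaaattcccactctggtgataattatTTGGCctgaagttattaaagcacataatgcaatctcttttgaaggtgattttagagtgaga

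The site on chromosome 1, 79952841 to 79952856, lay 97577 bp from Serpine2, which encodes a secreted protease inhibitor, and had 9 WT, 3 KO and 2 input tags in 300 bp. Its window held a match to the palindrome with the 2 substitutions T10A and A15G, where the consensus base is given first and positions are counted from 1 at the 5′ end. The site in an intron of Astn2, an astrotactin gene of neurons, had 8 WT tags, 0 KO tags and 1 input tag. The site at 72051388 to 72051403 on chromosome 4, 189442 bp from Tle1, had 8 WT, 10 KO and 0 input tags, with a match that carried T10A and G11A. The site in an intron of Caln1, a calcium-binding protein gene, had 8 WT, 10 KO and 0 input tags. The site at 81579199 to 81579214 on chromosome 1, 240867 bp from 9430031J16Rik, had 7 WT tags and 0 in both other libraries. A count of 0 allows up to 3 tags. In 2 of these 5 windows the KO ChIP thus held as many tags as the WT ChIP or more. An arm of the palindrome was present in 4 of the 5 printed stretches of 100 bp. Over all 2997 deposited sites in the regions this share was 17.4%, and over windows of 100 bp placed every 1000 bp across the regions 14.6%.

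Of the 2997 deposited sites in these regions, 17 had a match to the palindrome with at most 1 mismatch within 150 bp. The 5 with the most WT tags are shown next, since they come within 1 base of the palindrome, with the match in capitals and 15 bases on either side.
chr7:149004408-149004452: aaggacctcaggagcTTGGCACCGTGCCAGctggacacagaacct
chr1:42410106-42410150: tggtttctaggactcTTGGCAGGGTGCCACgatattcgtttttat
chr4:19859355-19859399: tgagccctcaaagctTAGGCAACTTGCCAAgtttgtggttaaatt
chr1:80405318-80405362: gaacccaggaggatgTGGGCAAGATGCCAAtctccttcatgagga
chr3:59817946-59817990: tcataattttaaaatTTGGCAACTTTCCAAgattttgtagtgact

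The first lies in an intron of Muc5ac, a gel-forming mucin gene, with the substitution A15G and with 6 WT tags and 0 in both other libraries around its deposited site. The second lies between genes, 122251 bp from Gm9915, carries A15C and had 5 WT tags, 1 KO tag and 0 input tags. The third lies 9693 bp from Atp6v0d2, a subunit gene of the vacuolar proton pump, carries T2A and had 5 WT tags and 0 in both other libraries. The fourth, 23533 bp from Gm6189, carries T2G and had 4 WT tags, 5 KO tags and 1 input tag. The fifth, in an intron of Aadacl2, carries G11T and had 4 WT tags and 0 in both other libraries. Across all 17 sites the WT counts ran from 2 to 6 tags.

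The regions together contained 190 Mb of assembled sequence, 7.43% of the genome and 18.4% of all H3K27me3-rich bases. Their length had a median of 24.9 kb and ran from 0.045 to 427.6 kb, with the middle 50% between 14.1 and 46.6 kb. The H3K27me3-rich regions that overlapped H3K4me3 were longer, with a median of 52.6 kb over 9470 regions. Of the 5105 regions, 482 lay on chromosome X (9.44%), which holds 6.34% of the assembled genome. The regions were also poorer in genes: 31% of their bases lay in protein-coding genes and 64.3% of them touched no such gene, against 42.3% of bases and 15.1% of regions where H3K4me3 was present. Over the genome, gaps included, 37.5% of bases lay in such genes. H3K36me3, a mark of transcribed gene bodies, touched 5.07% of the regions without H3K4me3 and 68.3% of those with it. By bases it covered 1.34% and 18.0%. A longer region can touch a gene or a mark more easily, and the part of length in the shares of regions was not tested. Lamina-associated domains, which lie at the nuclear periphery and were lifted over from human cells by the authors, covered 56.4% of the bases without H3K4me3 and 30.98% of those with it.

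The separation from H3K4me3 was wide for most regions. The median distance to the nearest H3K4me3-rich region was 59.8 kb and the smallest 16 bp, and 19 regions lay within 1 kb of one. At the other side of the rule, 42 regions were left out that shared under 1 kb with H3K4me3, the smallest overlap being 131 bp. The WT ChIP, KO ChIP and input had 0.965, 1.07 and 1.09 times the genome average in the former 19 and 1.36, 1.36 and 1.38 times in the latter 42.

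Tags at the same position and strand were counted as 1. The WT ChIP placed 264442 of 3350071 tags in the regions, the KO ChIP 247808 of 3132004 and the input 300703 of 4100449. The totals were 34.3%, 28.97% and 75.8% of the uniquely mapped reads on the counted chromosomes. Both ChIP libraries therefore held far more repeated positions than the input. These densities were 1.06, 1.07 and 0.987 times the genome average of each library. All 3 libraries thus covered the regions at close to their average density, and both ChIP libraries were slightly above the input.

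After scaling for library size, the WT ChIP was 1.08 times the input (1.07 to 1.08) and the KO ChIP 1.08 times the input (1.07 to 1.09). The KO ChIP was 1.00 times the WT ChIP (0.997 to 1.01), an interval that includes equal density. Sequence rich in neither mark, 52.7% of the genome, had a higher WT to input ratio of 1.11 (1.11 to 1.11) and a KO to input ratio of 1.09 (1.09 to 1.09). The WT to input ratio of the regions was 0.971 times that of this sequence (0.966 to 0.977), so an excess of ChIP over input was not particular to the regions. They share 1 input library, so these ratios to the input are not independent. With every uniquely mapped read counted the WT to input ratio was 1.16 (1.15 to 1.16) and the KO to input ratio 1.16 (1.15 to 1.16).

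Over the 9470 regions with H3K4me3, the same ratio of WT ChIP to input was 0.883 (0.881 to 0.885), with tag densities of 1.18, 1.20 and 1.33 times the genome average in WT ChIP, KO ChIP and input. The ratio in the regions without H3K4me3 was 1.22 times that value (1.21 to 1.23). Counting only the bases of the former regions that lie outside H3K4me3, 538.4 Mb with a WT to input ratio of 0.992, brought this to 1.09 (1.08 to 1.09), and weighting the regions with H3K4me3 by GC class to match those without it gave 1.06 (1.06 to 1.07). H3K4me3-rich regions without H3K27me3 had 1.40, 1.41 and 1.45 times the genome average and a ratio of 0.968 (0.959 to 0.977). In the 5 kb flanks the ratio was 1.08 (1.07 to 1.09), and that in the regions was 0.997 times it (0.984 to 1.01). The ratio over the input therefore did not separate the regions from their own flanks, while it differed from that of regions with H3K4me3 by more than counting error.

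**Figure D1:**
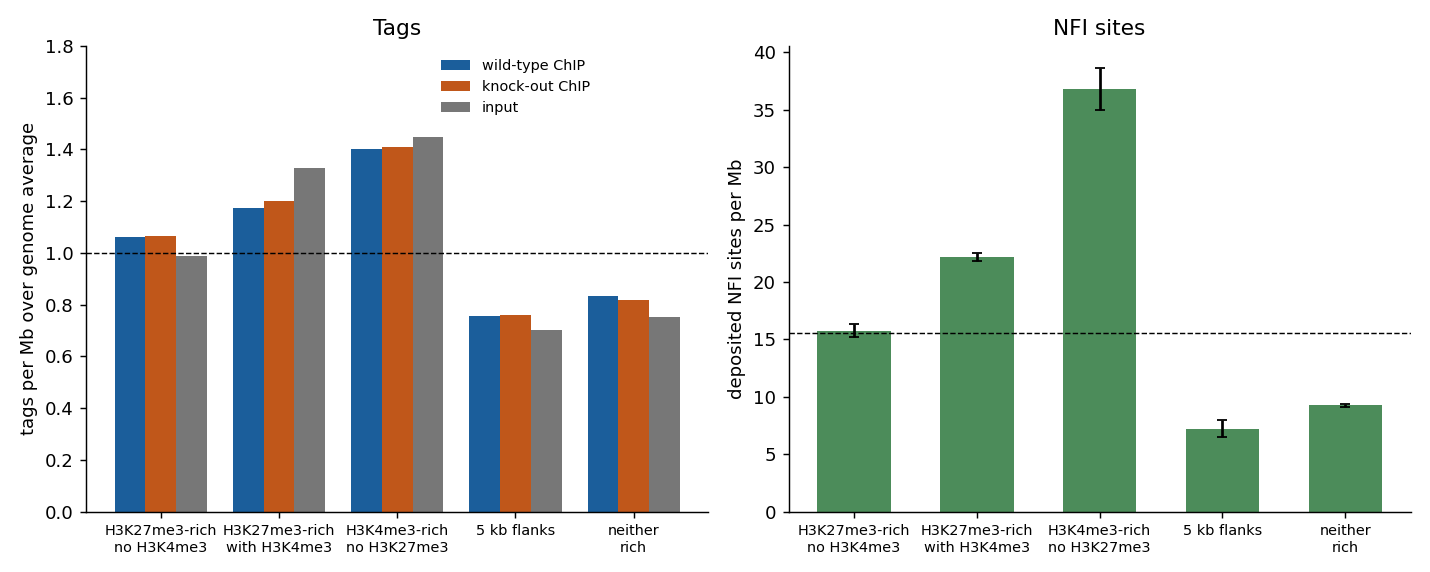
Left, tags per Mb of each library divided by its genome average (dashed line at 1) in the 5 kinds of sequence; right, deposited NFI sites per Mb with 95% Poisson intervals, the dashed line being the genome average of 15.6. The H3K27me3-rich regions without H3K4me3 lie at 1.06, 1.07 and 0.987 times the average and hold 15.8 sites per Mb, while their flanks lie lowest in both plots.

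The edges of the regions were visible in every library, the input included. Relative to the genome average, the flanks had 0.757 of the WT ChIP tags, 0.762 of the KO ChIP tags and 0.702 of the input tags. In the first kb inside the edge these values were 1.10, 1.12 and 1.04, and between 4 and 5 kb outside they were 0.692, 0.697 and 0.638. Further out they were higher again, at 0.873, 0.866 and 0.795 in the bin centred 19.5 kb outside. Sequence rich in neither mark had 0.834, 0.820 and 0.753, so the flanks lay below it. The step is thus shared by immunoprecipitated and unprecipitated DNA, and GC content was 41.25% inside and 41.1% in the flanks.

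Deposited NFI sites followed the same step. The regions held 15.8 sites per Mb (15.2 to 16.3), the flanks 7.21 (6.48 to 7.99) and sequence rich in neither mark 9.25 (9.09 to 9.41). The genome average was 15.6 sites per Mb, so the density in the regions was 1.01 times the average (0.978 to 1.05). Regions with H3K4me3 held 22.2 sites per Mb (21.9 to 22.5), and their bases outside H3K4me3 13.7. Per 1000 WT tags there were 11.3 sites in the regions, 7.27 in the flanks and 14.4 in regions with H3K4me3. The densities of sites and tags thus did not move in proportion. The paper lists a threshold of 5 tags for calling sites and no use of the input. A higher tag density can therefore itself raise the site density. Neither density was corrected for the share of sequence to which reads map uniquely, and these parts of the step were not tested. Within 5 kb of the edge on the inner side the density was 16.4 sites per Mb (15.3 to 17.6), and deeper inside it was 15.6 (14.9 to 16.2).

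**Figure D2:**
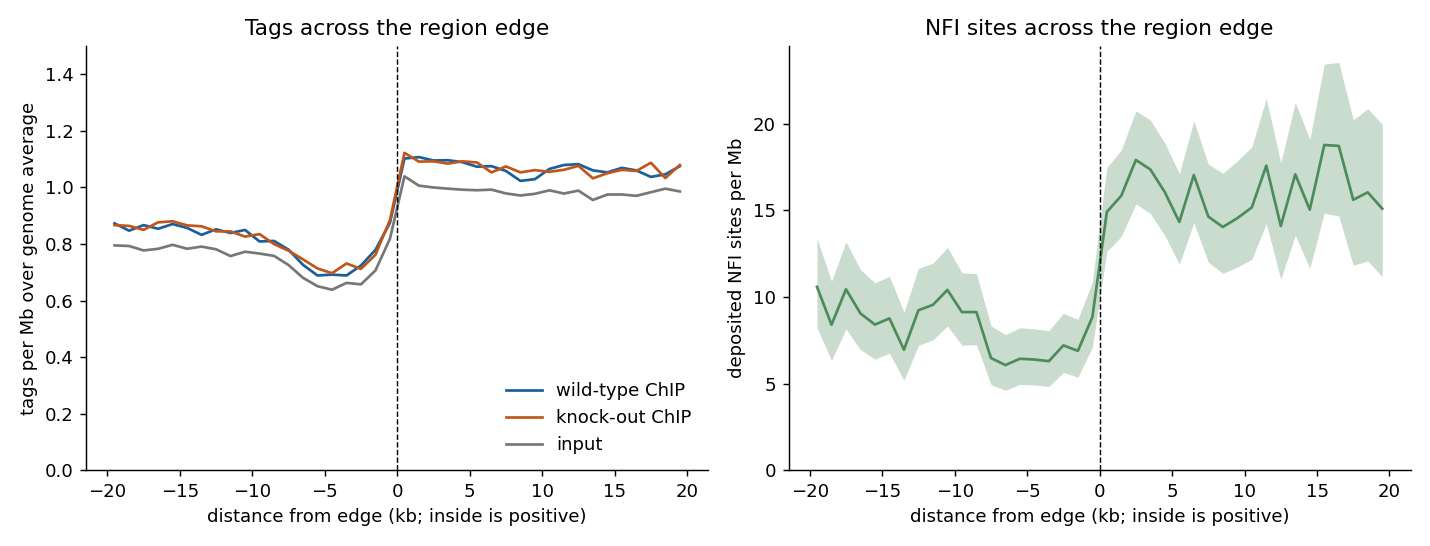
Distance from the region edges in bins of 1 kb (positive inside, up to the middle of the region) against tags per Mb over the genome average of each library, left, and against deposited NFI sites per Mb with 95% Poisson intervals, right; other rich regions were left out on the outer side. All 3 libraries step down outside the edge to values between 0.638 and 0.697 at 4 to 5 kb, where the site density is 6.39 per Mb, against 14.9 per Mb in the first kb inside. In the bin centred 19.5 kb outside, WT ChIP, KO ChIP and input are at 0.873, 0.866 and 0.795, and sites at 10.6 per Mb (8.23 to 13.4).

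At least 1 deposited site lay in 1911 of the 5105 regions, or 37.4% (36.1 to 38.8), against 52.5% of all H3K27me3-rich and H3K4me3-rich regions. There were 1235 regions with 1 site, 438 with 2 and 143 with 3, the highest number being 8. The share depended on length: it was 4.69% of the 128 regions under 5 kb, 19.97% of the 1322 regions of 10 to 20 kb, 39.8% of the 1912 regions of 20 to 50 kb and 85.9% of the 298 regions of 100 kb or more. The number of sites per Mb did not follow length in this way, with 15.7 (14.0 to 17.6) at 10 to 20 kb, 16.1 (15.1 to 17.1) at 20 to 50 kb and 14.8 (13.7 to 15.9) at 100 kb or more. In regions with H3K4me3 the density fell with length, from 33.9 sites per Mb (31.2 to 36.7) at 10 to 20 kb to 20.5 (20.1 to 20.8) at 100 kb or more. In each of the 6 length classes the intervals of both kinds of region did not overlap. The input of regions with H3K4me3 fell with length too, from 2.07 times the genome average at 10 to 20 kb to 1.24 at 100 kb or more. Without H3K4me3 it was 1.00 and 0.982 times in the same classes. The part of this background in the site densities was not tested.

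**Figure D3:**
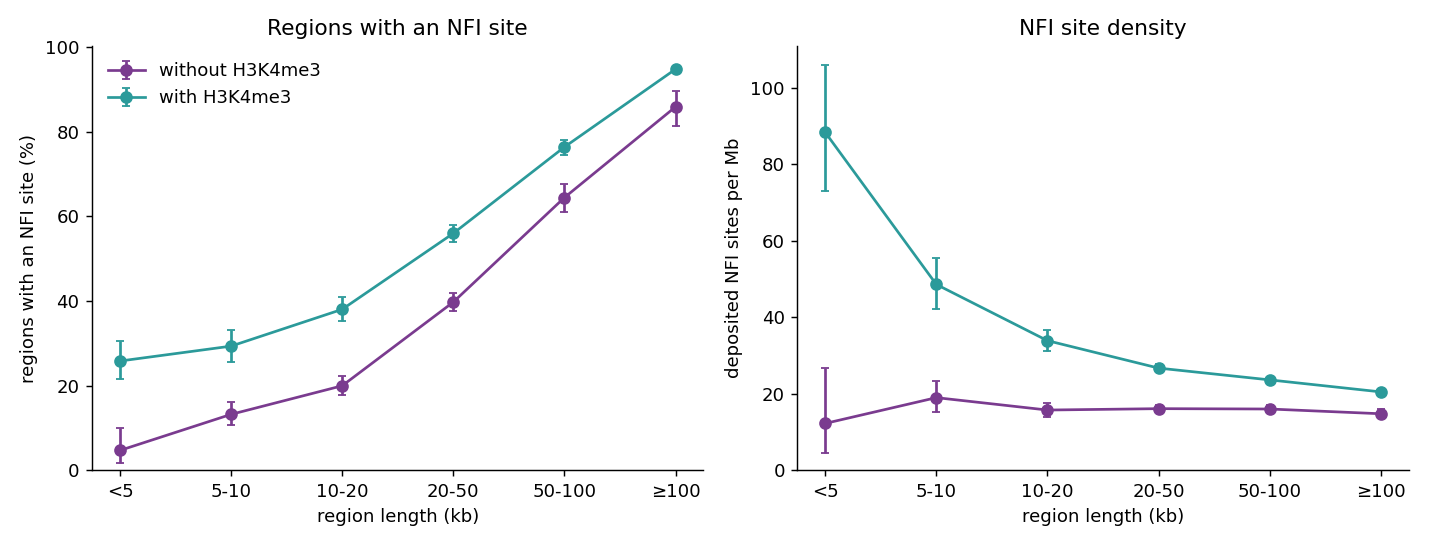
Regions grouped by length, with the share that holds at least 1 deposited NFI site, left, and the number of sites per Mb, right; points are H3K27me3-rich regions without or with H3K4me3 and bars are 95% intervals, binomial on the left and Poisson on the right. Without H3K4me3 the share climbs from 4.69% to 85.9% while the density stays between 12.2 and 18.97 per Mb.

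The WT to input ratio also varied with length, from 0.804 (0.731 to 0.883) in the 128 regions under 5 kb to 1.09 (1.08 to 1.10) at 20 to 50 kb and 1.04 (1.03 to 1.06) at 100 kb or more. The low value of the shortest regions went with an input of 1.43 times the genome average. One of them, of 3.00 kb on chromosome 3, 5857807 to 5860804, had 154 of their 1124 input tags, or 32.1 times the genome average, with 17 tags in each ChIP library.

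The ratio varied with base composition too. The regions had a GC content of 41.25% and 7.31 CpG per kb, against 44.5% and 10.8 in regions with H3K4me3. Between regions of under 36% GC and those of 48% or more, the WT to input ratio fell from 1.19 (1.15 to 1.22) to 0.772 (0.750 to 0.795), and the KO to input ratio from 1.15 (1.11 to 1.18) to 0.824 (0.800 to 0.848). The KO to WT ratio rose over the same range from 0.965 (0.935 to 0.996) to 1.07 (1.03 to 1.10). The WT density itself fell from 1.15 to 0.864 times the genome average while that of the input rose from 0.972 to 1.12. Sites per Mb fell from 18.3 (14.9 to 22.2) to 9.20 (7.04 to 11.8). In regions with H3K4me3 the WT to input ratio was 1.07 (1.03 to 1.11) under 36% GC, higher at 1.17 (1.15 to 1.19) for 36 to 38%, and fell from there to 0.670 (0.667 to 0.674). In each of the 8 GC classes the regions without H3K4me3 had the higher ratio and the lower site density; at 36 to 38% GC the intervals of the ratio overlapped, and in the other 7 classes they did not.

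**Figure D4:**
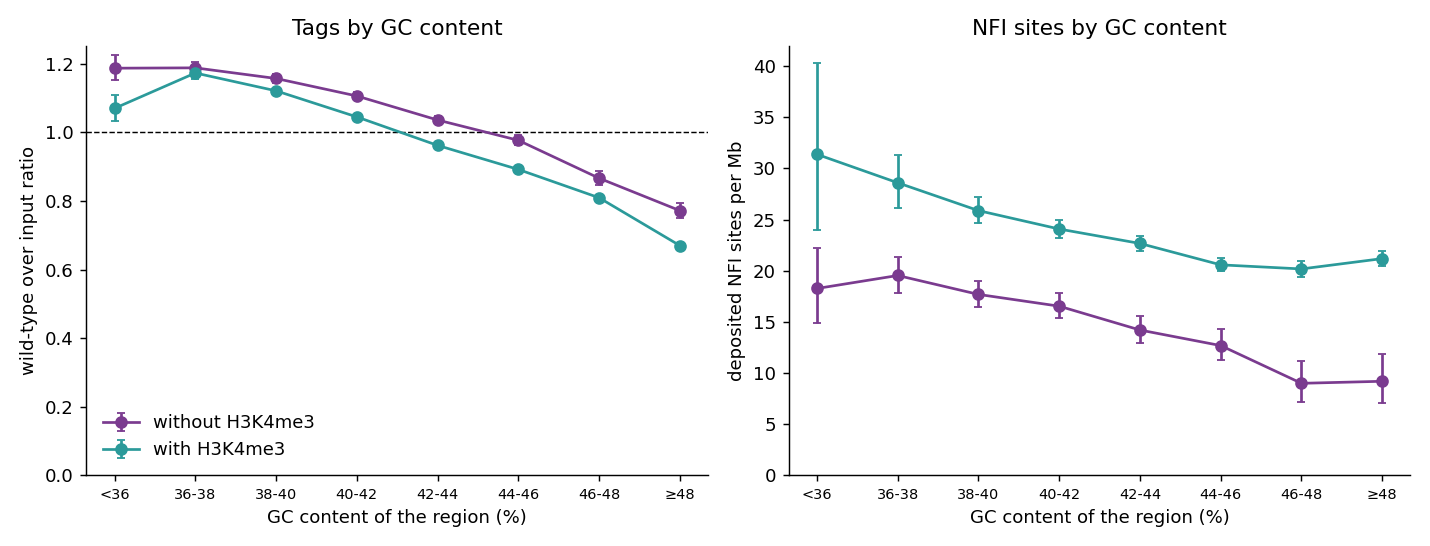
GC content of the region in 8 classes against the WT over input ratio, left, and deposited NFI sites per Mb, right, for H3K27me3-rich regions without and with H3K4me3; bars are 95% intervals, binomial for the ratio and Poisson for the density. The ratio falls from 1.19 to 0.772 without H3K4me3, and with it rises from 1.07 to 1.17 before it falls to 0.670.

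On chromosome X the 482 regions had 1.00, 0.992 and 0.878 times the genome average in WT ChIP, KO ChIP and input. The WT to input ratio there was 1.14 (1.12 to 1.16) and on the autosomes 1.07 (1.07 to 1.08), a ratio between them of 1.07 (1.05 to 1.09). Site density was lower on chromosome X, with 11.2 per Mb (9.69 to 12.9) against 16.2 (15.6 to 16.8). The input was itself lower on chromosome X than on the autosomes, at 0.878 against 0.998 times the genome average, and its part in the ratio was not tested. By autosome the WT to input ratio ran from 1.02 on chromosome 4 to 1.12 on chromosome 19, and the site density from 11.9 per Mb on chromosome 7 to 19.5 on chromosome 1. GC content was 42.5% on chromosome 4, 41.1% on chromosome 19 and 39.0% on chromosome X.

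Regions mostly inside and mostly outside the lamina-associated domains had similar WT to input ratios and site densities. The 2643 regions with at least 50% of their bases in lamina-associated domains had a WT to input ratio of 1.08 (1.07 to 1.09) and 15.6 sites per Mb (14.9 to 16.4), and the other 2462 had 1.07 (1.06 to 1.08) and 15.96 (15.1 to 16.8). The ratio between both groups was 1.01 (0.996 to 1.02). For the KO ChIP over the WT ChIP it was 0.987 (0.976 to 0.998). Regions fully inside the domains had a WT to input ratio of 1.09 (1.08 to 1.10), and those wholly outside 1.07 (1.06 to 1.08). The 259 regions that touched H3K36me3 had a WT to input ratio of 0.994 (0.974 to 1.02), below the 1.08 (1.08 to 1.09) of the other 4846. Their GC content was 44.5% against 41.0%. Their site density was 15.5 per Mb (13.4 to 17.9), against 15.8 (15.2 to 16.4).

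Few single regions were past 2-fold from the input. Among the 4811 regions with at least 20 tags in WT ChIP and input together, the WT ChIP was more than 2-fold above the input in 113 (2.35%), where the background over all H3K27me3-rich and H3K4me3-rich regions was 1.5%. It was more than 2-fold below in 106 (2.2%), where the background was 13.9%. With every uniquely mapped read counted, 362 of 5035 regions lay above (7.19%, background 3.66%) and 173 below (3.44%, background 16.7%). With a fold of 1.5 in place of 2, 628 lay above (13.1%, background 6.63%) and 337 below (7%, background 25.9%). For the KO ChIP over the input, 139 of 4797 regions (2.9%) lay above, with a background of 1.87%, and 112 (2.33%) below, with a background of 13.8%. The KO ChIP was more than 2-fold above the WT ChIP in 136 of 4720 regions (2.88%, background 2.5%) and below in 126 (2.67%, background 2.26%). The regions without H3K4me3 thus differed from the background most in how rarely both ChIP libraries fell below the input. Of regions with H3K4me3, 11.9% (11.2 to 12.6) had a WT ChIP below the input by this measure, against 2.2% (1.81 to 2.66) of those without. Over the 3461 regions with at least 50 such tags, the WT to input ratio had a median of 1.10, with 90% of the regions between 0.695 and 1.67.

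The 5 longest regions all overlapped protein-coding genes. The longest, on chromosome 6 from 135603198 to 136030788 (427.6 kb), overlapped Grin2b, an NMDA receptor subunit gene, and had 539 WT, 568 KO and 662 input tags and 4 sites. The WT to input ratio was 0.997 (0.888 to 1.12), with no difference detectable, while the KO to input ratio was 1.12 (1.00 to 1.26) and the KO to WT ratio 1.13 (1.00 to 1.27). The region on chromosome 11 from 33922566 to 34326910 held Lcp2, an adaptor of T cell receptor signalling, Dock2, an activator of Rac in leukocytes, Foxi1 and Fam196b. It had 490 WT, 476 KO and 633 input tags, 3 sites and a ratio of 0.948 (0.840 to 1.07). The region on chromosome 9 from 15879132 to 16256791 lay over Fat3, an atypical cadherin gene, with 598, 583 and 647 tags in the same order and 7 sites. Its ratio was 1.13 (1.01 to 1.27). The region on chromosome 16 from 96644208 to 97013975 held Igsf5, Itgb2l, Pcp4 and Dscam, a neuronal adhesion gene, with 468, 464 and 593 tags and 6 sites, and that on chromosome 8 from 24994380 to 25345592 held Zmat4 and A730045E13Rik, with 466, 422 and 537 tags and 1 site. The ratios of these last regions were 0.966 (0.854 to 1.09) and 1.06 (0.936 to 1.21). Of the 5 regions, only that over Fat3 had a WT to input interval above 1. This interval included the 1.08 of all the regions together, while that of the region holding Lcp2 ended below it.

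The highest counts were 8 sites, in 2 regions, and 7 sites, in 5 regions. The former and the 3 of the latter with the most WT tags were selected, and 4 of these 5 are described. The region on chromosome 11 from 66018425 to 66274086, over Shisa6, which encodes an auxiliary protein of AMPA receptors, held 8 sites, with 339 WT, 345 KO and 377 input tags and a ratio of 1.10 (0.948 to 1.28). Besides that over Fat3, the named regions with 7 sites were the region on chromosome 2 from 179381497 to 179643552, over the cadherin gene Cdh4 and Gm10711, and the region on chromosome 8 from 110647512 to 110860514, 378029 bp from the transcription factor gene Zfhx3. In the same order, the former had 336, 381 and 447 tags and a ratio of 0.920 (0.796 to 1.06), and the latter 309, 286 and 349 tags and a ratio of 1.08 (0.927 to 1.27). The KO to input ratio was 1.18 (1.05 to 1.32) over Fat3, 1.20 (1.03 to 1.39) over Shisa6, 1.12 (0.971 to 1.28) over Cdh4 and 1.07 (0.914 to 1.26) near Zfhx3. The KO to WT ratio was 1.04 (0.929 to 1.17), 1.09 (0.934 to 1.27), 1.21 (1.05 to 1.41) and 0.990 (0.840 to 1.17) in the same order.

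Among the regions with at least 50 tags, the highest WT to input ratio was 3.31 (1.86 to 6.16), in a region of 17.1 kb on chromosome 4 from 72222540 to 72239647, 272107 bp from Aldoart1, with 46 WT, 25 KO and 17 input tags and 1 site. The next had ratios of 2.62 (1.53 to 4.64) on chromosome 1 from 173522928 to 173544297, at Ly9, a receptor of lymphocytes, and of 2.60 (1.40 to 5.05) on chromosome 7 from 98907977 to 98921840, at Dlg2, a postsynaptic scaffold gene. Ly9 had 45, 22 and 21 tags in WT ChIP, KO ChIP and input, and the region at Dlg2 had 34, 22 and 16. In all 3 the input was below its genome average, at 0.620, 0.613 and 0.720 times. The lowest ratios were 0.135 (0.0767 to 0.224) in the region of 3.00 kb on chromosome 3 named above, 281567 bp from Pxmp3, 0.220 (0.0953 to 0.453) at the potassium channel gene Kcnk9 and 0.345 (0.160 to 0.687) at Fam19a5. The tags were 9, 22 and 50 at Kcnk9 on chromosome 15, 72370779 to 72382051, and 11, 21 and 39 at Fam19a5 on chromosome 15, 87366943 to 87383618, with GC contents of 51.1% and 50.7%. These 6 regions were picked as the extremes of 3461, so their ratios are a description.

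The starts of 1002 of 22367 protein-coding genes (4.48%) lay inside the regions, in 866 of the 5105 regions (17.0%). For 834 of these genes no other start lay in an H3K4me3-rich region or in an H3K27me3-rich region with H3K4me3. By comparison, 67.8% of all genes had a start in an H3K27me3-rich region with H3K4me3 and 65.1% a start in an H3K4me3-rich region. The deposited H3K27me3-rich regions were thus broad: they covered 1032 Mb in all, no gap between neighbours was under 5016 bp, and 11 of 12 housekeeping genes and 18 of 20 genes typical of fibroblasts had a start inside one with H3K4me3. Regions with a gene start had 1.02, 1.05 and 1.01 times the genome average in WT ChIP, KO ChIP and input, and those without had 1.08, 1.07 and 0.980 times.

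Nearly all listed developmental regulators, the textbook targets of Polycomb, had at least 1 start in a region with H3K4me3. So had housekeeping genes (91.7%) and fibroblast genes (90%), against 67.8% of all genes, so this placement was not particular to developmental regulators. Only 36.05% of the bases of such regions were H3K4me3-rich, so a start in one need not carry H3K4me3. A start in H3K4me3-rich sequence itself was found for 38 of 39 Hox genes and 39 of 42 neural and sensory genes. It was found for 22 of 24 ligand genes and 16 of 23 genes of endoderm, heart and muscle. None of 39 Hox genes, which set positional identity along the body axis, had a start in the regions, and all 39 had one in a region with both marks. None of 24 genes of signalling ligands and none of 20 Polycomb genes did, against 24 and 18 in regions with both marks. Of 42 genes of neural and sensory development, 1 (2.38%) had a start in the regions, and of 23 genes of endoderm, heart and muscle development 1 (4.35%). Of 11 blood genes 1 did (9.09%) and of 9 liver and gut genes 2 (22.2%), where the background was 4.48%. Of the 4 NFI genes 1 did (25%), by 1 of its transcripts, and all 4 had a start in a region with both marks. None of the 20 fibroblast genes and none of the 12 housekeeping genes did.

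**Figure D5:**
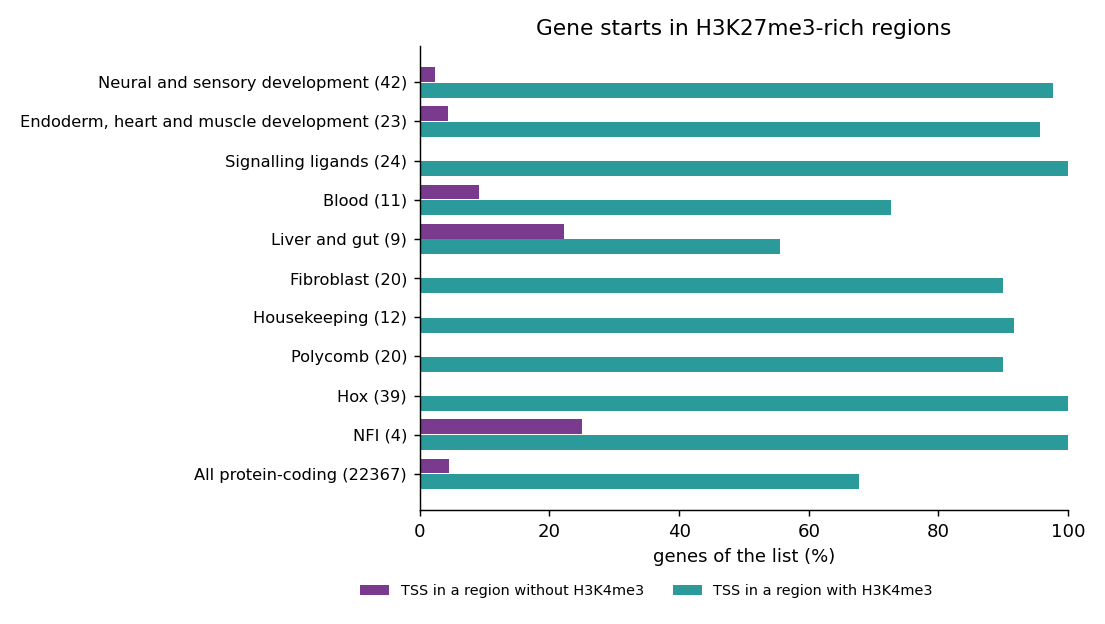
Share of the genes of each list with a start in an H3K27me3-rich region without H3K4me3 (upper bars) or with H3K4me3 (lower bars); the number of annotated genes stands in brackets, and a gene with several starts can count in both. The Hox genes have 0% and 100%, and over all 22367 genes the shares are 4.48% and 67.8%.

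The 6 list genes with a start in the regions differed in their tags. Cyp7a1, the rate-limiting enzyme of bile acid synthesis, lay in a region of 26.7 kb on chromosome 4 (6185578 to 6212264) with 49 WT, 41 KO and 30 input tags and no site, and its WT to input ratio of 2.00 (1.24 to 3.26) was the highest of the 6, with a KO to input ratio of 1.79 (1.09 to 2.97). Ptprc, which encodes the leukocyte phosphatase CD45, lay in a region of 163.8 kb on chromosome 1 (139953443 to 140117282) with 263, 256 and 283 tags and 6 sites, and a ratio of 1.14 (0.958 to 1.35). Sox17, a regulator of endoderm, lay in a region of 34.8 kb on chromosome 1 (4477115 to 4511943) with 45, 37 and 91 tags and no site, at a ratio of 0.605 (0.414 to 0.874). Sox3, a regulator of neural progenitors, lay in a region of 199.8 kb on chromosome X (57994077 to 58193881) with 183, 202 and 298 tags and 1 site, at a ratio of 0.752 (0.622 to 0.907). Ttr, a plasma carrier of thyroid hormone made by the liver, lay in a region of 39.1 kb on chromosome 18 (20797834 to 20836891) with 47, 53 and 61 tags and no site, at a ratio of 0.943 (0.631 to 1.40). Nfib, itself a member of the NFI family, had 1 of its 15 annotated transcripts start in a region of 60.1 kb on chromosome 4 (82322708 to 82382768) and the other 14 in a region with H3K4me3. Its region had 91, 84 and 114 tags, 3 sites and a ratio of 0.977 (0.734 to 1.30). The WT ChIP was thus above the input beyond counting error at Cyp7a1 and below it at Sox17 and Sox3. It was not distinguishable from the input at Ptprc, Ttr and Nfib. The WT ChIP and input were 1.40 and 0.701 times the genome average at Cyp7a1. At Sox17 they were 0.987 and 1.63 times, and at Sox3 0.6995 and 0.931 times. The part of the input in these ratios was not tested. The KO to WT intervals of all 6 regions included 1.

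The 2997 sites in the regions mostly lay far from gene starts. Of them 933 (31.1%) were intronic, 76 (2.54%) exonic and 1988 (66.3%) intergenic, and 156 (5.21%, 4.44 to 6.06) lay within 5 kb of a gene start, against 28.0% (27.4 to 28.7) of the 18674 sites in regions with H3K4me3. The median distance to the nearest start was 95.9 kb in the regions, 20.9 kb in regions with H3K4me3 and 91.9 kb in sequence rich in neither mark.

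At these sites the WT ChIP had 9495 tags in 300 bp, the KO ChIP 1746 and the input 1620, or 8.07, 1.59 and 1.12 times the genome average. The WT value follows from the way the sites were called, on the WT tags themselves, and it is given as a description. At the authors' threshold of 5 tags, only 10.0% of these sites reached 5 WT tags in 300 bp, while 99.0% did so in 600 bp with tags shifted by 75 bp. No KO tag was found in 300 bp at 63.4% of the sites and no input tag at 59.4%. At all other deposited sites these shares were 58% and 53.1%, and at those in sequence rich in neither mark 66.6% and 60.5%. The genome average was 0.367 KO tags and 0.481 input tags per 300 bp, so windows without a tag are common at this depth.

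The KO ChIP was 1.41 times the input (1.32 to 1.51) at the sites in the regions, against 1.11 times (1.09 to 1.12) at all other deposited sites together. By class it was 1.36 times (1.30 to 1.41) at sites in H3K4me3-rich sequence outside H3K27me3, an interval that overlapped that of the regions, 1.19 times (1.15 to 1.23) in sequence rich in neither mark and 1.03 times (1.01 to 1.05) in H3K27me3-rich regions with H3K4me3. The calling of sites on WT tags does not use these libraries, but over whole regions the WT and KO to input ratios fell together with rising GC content. The calling can therefore still enter the KO to input ratio, and this was not tested. The input itself was at 1.12 times the genome average at the sites in the regions and at 1.93 times at the other sites, which moves with this ratio, and its part in it was not tested. Sites with 5 or more input tags made up 0.234% of those in the regions and 2.17% of the others.

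The KO ChIP was 0.197 of the WT ChIP (0.187 to 0.207) at the sites in the regions and 0.256 (0.253 to 0.260) at the other sites, a ratio of 0.768 (0.728 to 0.809). In sequence rich in neither mark it was 0.166 (0.162 to 0.171). The WT tags in the denominator were the ones that defined the sites, in every class of sequence, so the level of these values is no measure of the loss of NFI-C. Restricted to sites without an input tag, the ratio was 0.870 (0.811 to 0.933), and counting every uniquely mapped read it was 0.528 (0.513 to 0.543).

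Matches to the palindrome were placed in the genome sequence without regard to any tag. With at most 2 mismatches at the 12 fixed positions, the regions held 8426 matches on either strand, 44.3 per Mb, against 44.6 per Mb in regions with H3K4me3, 37.8 in the flanks and 41.4 over the genome. At the 483 matches with 1 mismatch, the WT ChIP had 389 tags in 300 bp, the KO ChIP 286 and the input 270, or 2.05 (1.85 to 2.27), 1.61 (1.43 to 1.81) and 1.16 (1.03 to 1.31) times the genome average. At the 7935 matches with 2 mismatches these densities were 1.28 (1.24 to 1.32), 1.30 (1.26 to 1.35) and 1.03 (1.00 to 1.06). The closer match thus went with more tags in both ChIP libraries, while the input intervals overlapped. The WT to input ratio was 1.76 (1.51 to 2.07) at 1 mismatch and 1.24 (1.18 to 1.29) at 2. For the KO ChIP over the input it was 1.39 (1.17 to 1.64) and 1.26 (1.21 to 1.32), and these intervals overlapped.

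Over the 491 matches with at most 1 mismatch, the WT ChIP was 1.82 times the input (1.55 to 2.13) and the KO ChIP 1.43 times (1.21 to 1.69). The WT to input ratio at matches inside the regions was 0.955 times that at matches elsewhere in the genome (0.814 to 1.12). The KO ChIP was 0.787 of the WT ChIP (0.675 to 0.916) inside the regions, which was 0.872 times the value elsewhere (0.746 to 1.02). For the KO ChIP over the input the same comparison gave 0.833 (0.702 to 0.989). Tags at palindromes inside H3K27me3-rich regions without H3K4me3 were therefore not distinguishable from those elsewhere in the WT ChIP, at this depth, and the KO to input ratio was lower, with an interval whose upper bound was 0.989. Of the 491 matches, 17 lay within 150 bp of a deposited site.

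The regions held 8 matches without mismatch, with 16 WT, 12 KO and 3 input tags in all. Those with the most WT tags are shown because they hold the full palindrome, in capitals, and both lie within 150 bp of a deposited site.
chr5:49920727-49920771: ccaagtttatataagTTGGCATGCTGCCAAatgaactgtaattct
chr17:82935037-82935081: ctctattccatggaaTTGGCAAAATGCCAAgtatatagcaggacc

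The former lies 4808 bp from Kcnip4, which encodes a potassium channel interacting protein, and had 4 WT, 7 KO and 0 input tags. The latter lies 679563 bp from Pkdcc and had 4 WT tags and 0 in both other libraries. The other 6 had between 0 and 2 tags in the WT ChIP, and at 1 of them, on chromosome 11, no library had a tag. The WT to input ratio over the 8 matches was 6.53 (1.87 to 35.0).

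Most deposited sites in the regions had no such match: 90 of 2997 (3.00%, 2.42 to 3.68) had one with at most 2 mismatches within 150 bp, against 3.12% (2.95 to 3.31) of the other sites. The regions as a whole held 44.3 such matches per Mb. The share of windows with a match away from the sites was not counted, so the 3.00% is not compared with it. At these 90 sites the KO ChIP was 3.27 times the input (2.34 to 4.64), with 125 KO tags and 50 input tags, and at the 2907 sites without a match it was 1.35 times (1.26 to 1.45). An arm, TTGGC or GCCAA, was present in 17.4% (16.01 to 18.8) of the 100 bp windows at the sites and in 14.6% (14.5 to 14.8) of 192067 windows of the same length placed every 1000 bp over the regions, a window with both forms counted once. These shares include the palindromes and are a description of the letters in the windows.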

How the data were processed

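The analysed libraries were the WT and KO ChIP and the WT input. The authors placed reads on mm9 with ELAND. The deposited files list every read by position, strand and mismatches, without normalization or counts per region. The authors also deposited NFI sites, called with ChIP-peak after repeat filtering, and H3K27me3-, H3K4me3-, H3K36me3-rich and lamina regions. ChIP-Part parameters are not given in the sources used here. ELAND places the first 32 bases of a read. Libraries held 14358325, 16330049 and 12029975 reads, of which 68.1%, 66.3% and 45.1% mapped uniquely. Uniquely mapped tags were counted by their 5′ end on chromosomes 1 to 19, X and Y, at most 1 per position and strand. Ratios are scaled by library totals, and densities by assembled sequence of NCBI build 37. Intervals are exact binomial for ratios and shares, Poisson for counts and densities, and a normal approximation of the log for a ratio of ratios. Copies of 1 molecule are not independent, so intervals cover counting error only. Alternatives were every uniquely mapped read, reads without mismatch, other windows, folds and minimums, masked bins, GC weighting and other definitions of the regions. Gene starts are those of GENCODE vM1.

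Named items were the 5 longest regions, the 5 with most sites, the 3 highest and 3 lowest WT to input ratios at 50 tags or more, the 5 sites with most WT tags and fewer than 5 input tags, the 5 sites with a match of at most 1 mismatch and most WT tags, and list genes with a start in a region. Ties in sites per region were broken by WT tags, and those in tags per site by genome order. The result for 1 region with most sites is not reported here. Regions, gene lists and rules were chosen with earlier results of these data known. Matches without mismatch, single arms and gene families were chosen after values were seen. Figures were drawn with matplotlib 3.10.9, and counts and intervals computed with SciPy 1.17.1, NumPy 2.4.6 and pandas 2.3.3 under Python 3.11.15.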

Additional observations from a re-analysis of the deposited data

How the results depend on the processing

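No paired analysis was possible because each group had 1 library, and for the same reason no replicate could be left out. In 57 comparisons with an alternative, 36 values stayed within the interval or within 1.5 times the count, and no ratio whose interval excluded 1 changed direction. Counting every uniquely mapped read gave 1.16 for the WT and 1.16 for the KO ratio to the input, 1.44 against regions with H3K4me3, 0.528 for the KO to WT ratio at sites against other sites, and 362 and 173 regions past 2-fold above and below the input. Reads without mismatch gave 1.09, 1.09 and 1.26 for the first 3. Without the 266 bins of 10 kb richest in input, the WT ratio was 1.07 and that against regions with H3K4me3 1.21 (1.20 to 1.21). GC weighting gave 1.06 for the latter, and, chosen after seeing the data, bases outside H3K4me3 gave 1.09 and those at least 1 kb outside 1.09. Sites with at least 5 WT tags in 300 bp gave a density of 0.897 times the genome (0.798 to 1.00). The KO to WT ratio at sites against other sites was 0.833 with fewer than 5 input tags and, chosen after seeing the data, 0.647 against sites with both marks and 0.870 without an input tag. With a fold of 1.5, 628 and 337 regions lay above and below the input. Regions at least 1 kb from H3K4me3 (5086) and autosomes alone kept the ratios over whole regions and the site density within their intervals, and these settings were not run for ratios at sites or matches. The cause of these shifts was not tested, beyond what each setting leaves out. Depth limits single regions, with a median of 75 WT and input tags, and sites, with a median of 3 WT tags in 300 bp.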

Other observations

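The share of genes with a start in the H3K27me3-rich regions without H3K4me3 varied between gene families. The families were picked by name after the data were seen, so their counts are a description, to be set beside the 4.48% of all protein-coding genes. Of 12 numbered Spink genes, which encode secreted protease inhibitors, 4 had a start there (33.3%), as did 4 of 12 Lcn genes (33.3%), which encode lipocalins, and 4 of 13 Muc genes (30.8%), the mucins Muc2, Muc5ac, Muc5b and Muc15. Of 32 Adam genes 7 did (21.9%), of 23 Mmp genes 5 (21.7%), of 23 Cdh genes 5 (21.7%) and of 17 Tmprss genes 4 (23.5%). Gpr genes gave 13 of 97 (13.4%), Krtap genes 6 of 46 (13%) and Slc genes 19 of 355 (5.35%). Olfactory receptor genes gave 37 of 1113 (3.32%), below the share of all genes, vomeronasal receptor genes 1 of 203 (0.493%) for Vmn1r and 0 of 119 for Vmn2r, and numbered Zfp genes 2 of 371 (0.539%). Genes of a family often lie side by side, so members can share a region and are not independent.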
